A study of Hebeloma cylindrosporum with 4 samples.

Results

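In the RNA of Hebeloma cylindrosporum, 99 gene models had most of their sequencing reads counted as not unique. They were chosen from the 15382 gene models of the deposited tables, of which 13510 had at least 1 read. Total and unique gene reads were deposited for each model, and the counting rule is not given in the sources used here. Reads in the total that were not unique are called shared below, and what else they matched is not known. A model was included when its unique reads, summed over 4 libraries, were under 50% of its total reads. That sum over the libraries chose the members, so the shared share of each model is given below as a description and not as a result. The data do not hold sequences, coordinates or gene products for these models, so their identity to each other could not be checked, and "copy" below means only a member with a partner of the same transcript length. Each model is named by its transcript length in bp, and 4 are also named by ID.

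Hebeloma cylindrosporum is a basidiomycete that lives free in soil or forms ectomycorrhizas, root tips of a tree that are wrapped and entered by fungal hyphae. Free-living mycelium and ectomycorrhizas were compared, with 2 libraries each. Free-living mycelium of the wild-type diploid strain TV98 IV3 was harvested from 6-day cultures on Melin-Norkrans agar with 0.5 g per litre of fructose. Ectomycorrhizas came from greenhouse Pinus pinaster seedlings, inoculated at 20 days and grown in sterilized soil with 80% organic matter. The groups therefore differ in host, medium and growth site together, and these cannot be told apart. The submitters call the libraries biological replicates, but name no plant, pot or culture, so p-values measure only the spread between these libraries, which may be technical. An ectomycorrhiza also holds pine RNA, and its part in the fungal counts was not tested.

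Gene families grow by duplication, and recent duplicates, mobile elements and regions that an assembly holds more than once can be nearly alike in sequence. A short read from such a stretch has several equally good places, and a counting program has to drop it, split it or choose a place for it. The level of each copy then depends on that choice, and the summed level of the copies depends on whether such reads are kept.

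Depth was 17774509 and 19341938 gene reads for mycelium against 4748150 and 3967725 for ectomycorrhiza, so 1 read was worth 0.056 and 0.052 CPM (counts scaled to a fixed library total) in mycelium and 0.211 and 0.252 in ectomycorrhiza. Of all gene models, 1259 had at least 1 shared read. In mycelium, shared reads were 0.352% and 0.343% of all gene reads, and in ectomycorrhiza 0.205% and 0.182%. The 99 models held 38.0% and 35.9% of those shared reads in mycelium and 20.9% and 30.4% in ectomycorrhiza. Their total reads were 0.177% and 0.161% of the mycelium libraries and 0.0532% and 0.0712% of the ectomycorrhiza libraries. The mycelium shares lay above both ectomycorrhiza shares. The smallest two-sided p an exact permutation test allows for 2 libraries a group is p = 0.333, so shares per library carry no test.

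Most members were sparse. Of the 99, 12 had 1 read in all, 33 had under 10, 22 had 10 to 99, 25 had at least 100 but under 1000 and 19 had at least 1000. The 5 most read members took 49.0% of the 67899 reads of all 99. Reads were found in all 4 libraries for 56 members, in mycelium alone for 20 and in ectomycorrhiza alone for 5. The median transcript length was 886 bp, against 1191 bp for all models with a read, and lengths ran from 189 to 3738 bp.

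Sharing was complete in 55 members, which had no unique read in any library, and 16 of these had at least 100 reads. The other 44 had unique reads, with 26 of them sharing over 50% and up to 75% of their reads and 18 more than that. Over all members, 75.6% and 76.4% of the mycelium reads were shared, with exact 95% binomial intervals of 75.1 to 76.1 and 75.95 to 76.9. In ectomycorrhiza the shares were 80.6% (79.0 to 82.2) and 77.8% (76.3 to 79.4). These intervals cover counting error only, since reads without molecular identifiers are not independent molecules. Just inside the limit stood models with 52.0%, 53.6% and 55% shared reads, and just outside it 3 models at 50%, with 2, 2 and 12 reads in all.

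Members came in sets of equal length. Among the 99, 43 fell into 21 groups with the same transcript length to the base pair, 20 pairs and 1 group of 3. Of the 4851 possible pairs of members, 0.474% had equal lengths, against 0.050% of the pairs among other models with a read. Of the 44 members with at least 100 reads, 25 had a partner of equal length among the members. For the other 56 members no such partner was found, and models of unequal length can still share reads.

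Where neither copy had a unique read, the reads were divided about evenly. No copy had a unique read in 12 groups, of which 7 pairs had at least 100 reads. The 3738-bp pair had 1139 and 1089 reads in mycelium replicate 1, 838 and 838 in replicate 2, 105 and 84 in ectomycorrhiza replicate 1, and 188 and 203 in replicate 2. The 749-bp pair had 265 and 285, 304 and 301, 38 and 38, and 45 and 50 reads in the same libraries. Over the 7 pairs and 4 libraries, 24 of 28 values had the 6 or more reads with which an exact 95% binomial interval can leave out 50%. The interval of the split held 50% in 23 of these 24, and the exception was the 619-bp pair in mycelium replicate 1, with 214 and 174 reads.

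Where both copies had unique reads, the division of all reads lay close to that of the unique reads in mycelium and less so in ectomycorrhiza, where few unique reads were counted. In the 3201-bp pair, the copy with the lower ID held 47.7% of the pair's unique reads and 46.5% of its total reads in mycelium replicate 1, and 38.6% and 39.0% in replicate 2. In ectomycorrhiza it held 47.1% and 38.6% in replicate 1, from 17 unique reads in the pair, and 56.3% and 55.2% in replicate 2. In the 1488-bp pair the same copy held 85.4% of the unique and 85.4% of the total reads in mycelium replicate 1, and 83.3% and 83.0% in replicate 2. In ectomycorrhiza it held 100% and 83.3% in replicate 1, from 3 unique reads in the pair, and 75% and 66.7% in replicate 2, from 4. The third such pair, of 876 bp and 87 reads, gave 75% and 68.75% in mycelium replicate 1 and 63.6% and 65.7% in replicate 2 for the copy with the lower ID. The unique reads were few, at 8 to 56 per copy and library in the 3201-bp pair.

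**Figure D1:**
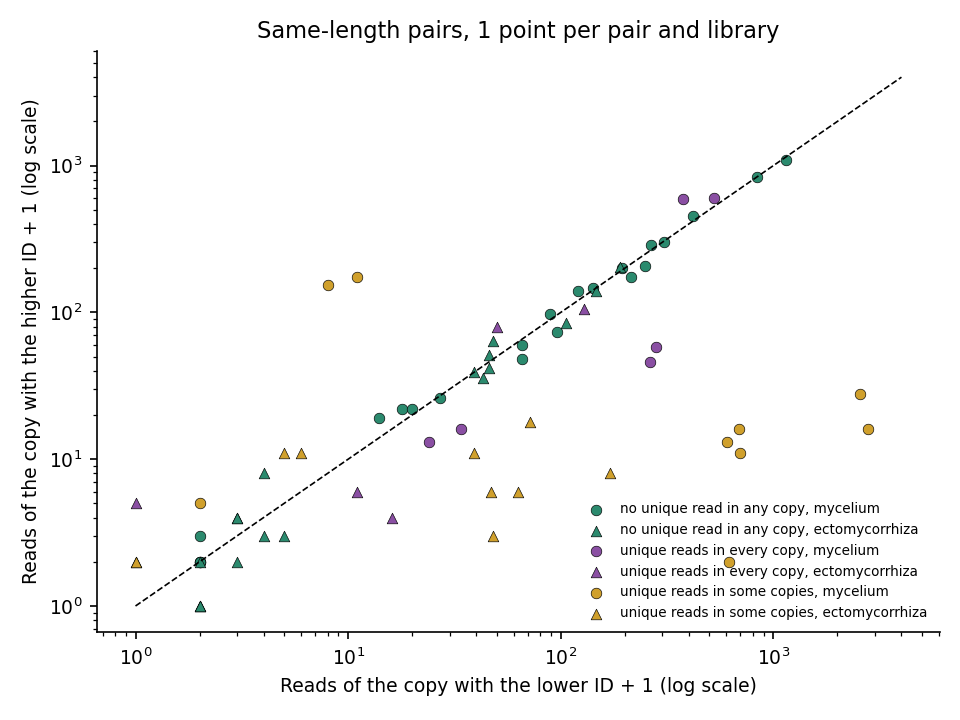
Reads of the 2 copies of each same-length pair, as reads + 1 on log axes, with 1 point for each of the 20 pairs and each library in which the pair had a read (circles mycelium, triangles ectomycorrhiza). Pairs with no unique read (green) lie along the dashed line of equal counts, such as 838 and 838 reads for the 3738-bp pair, while pairs in which 1 copy lacks unique reads (yellow) lie away from it where the pair had at least 100 reads in all, except that in 2 of 16 values the interval held 50%.

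In pairs of at least 100 reads where 1 copy had unique reads and the other had none, the counts were very uneven in mycelium. These were the pairs of 1254, 1477, 2229 and 2956 bp. In the 2956-bp pair, the copy with unique reads had 2771 and 2546 reads in mycelium, against 71 and 170 in ectomycorrhiza. Its partner without unique reads had 15 and 27 reads in mycelium, against 17 and 7 in ectomycorrhiza. The partner thus took 0.538% and 1.05% of the pair's reads in mycelium and 19.3% and 3.95% in ectomycorrhiza. For the 1254-bp pair these shares were 4.38% and 5.50% in mycelium and 28.6% and 33.3% in ectomycorrhiza, and for the 1477-bp pair 1.42% and 0.162% against 7.46% and 9.80%. The 2229-bp pair gave 2.13% and 1.95% in mycelium and 4.08% and 20.8% in ectomycorrhiza. In all 4 pairs both ectomycorrhiza values stood above both mycelium values. The better covered copy also had fewer unique reads in ectomycorrhiza, in the 2956-bp pair 3 and 10 against 156 and 118 in mycelium, and their part in the shift was not tested. In the 1363-bp group of 3, the copy with unique reads, 143 in all, had 308 reads over the 4 libraries and the copies without any had 923 and 962. The copy with unique reads has a far lower ID, and whether it shares reads with those copies was not tested.

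**Figure D2:**
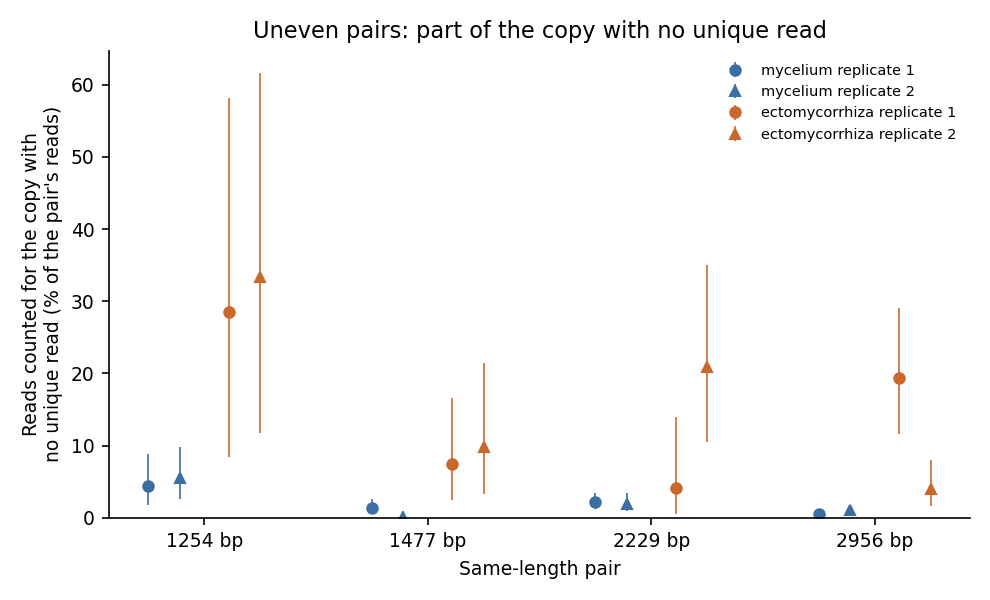
Reads counted for the copy with no unique read, as a percentage of the reads of the pair (vertical axis), in 4 same-length pairs (horizontal axis), with exact 95% binomial intervals for counting error. Mycelium values (blue) run from 0.162% to 5.50% and ectomycorrhiza values (orange) from 3.95% to 33.3%, with wide intervals where few reads were counted.

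Members were often neighbours in the order of their IDs. The longest run took 14 IDs in a row, with no other model between them. In ID order their lengths were 526, 991, 2956, 749, 1363, 3201, 619, 619, 3201, 1363, 749, 594, 2956 and 991 bp. The 6 same-length pairs in the run were nested, so that the 991-bp pair enclosed the 2956-bp pair and so on inward to the 619-bp pair, with a mirrored order on the far side. The models of 526 and 594 bp had no partner in the run. The run held 13199 reads, and 10 of its 14 members had no unique read. From its first ID to the end of the table stood 62 models, of which 24 (38.7%) were members, against 0.490% of all other models, a stretch chosen after these values were seen. ID order is not a map position, and coordinates were not used here.

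Other members repeated an order as well. The 2229-bp pair enclosed the 3738-bp pair in ID order, with 2 models between the 3738-bp copies. Models of 1488 and 1605 bp stood next to each other at 2 places in the list, in the same order each time, and the copies of either length had 813 other models between them. The pairs of 619, 814 and 1254 bp were made of neighbouring IDs. In all, 40 of the 99 members stood next to another member.

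**Figure D3:**
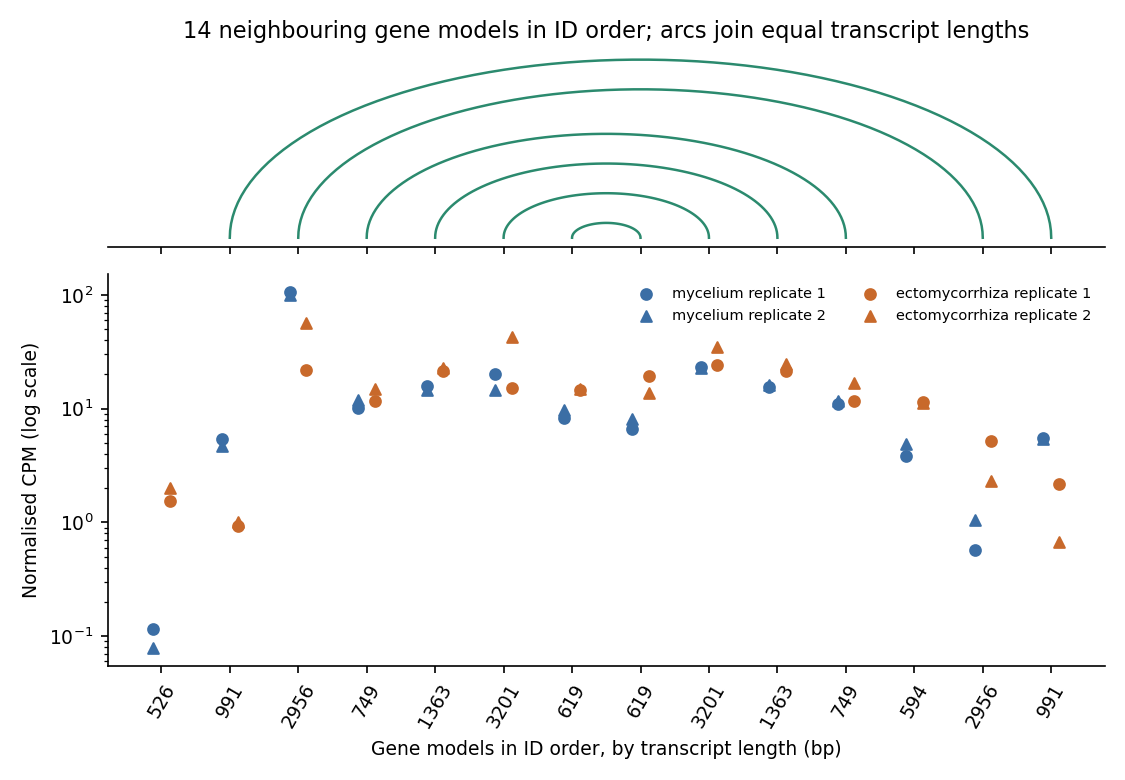
The run of 14 neighbouring IDs, with arcs joining members of equal transcript length (upper panel) and normalised CPM on a log scale in each library (lower panel; blue mycelium, orange ectomycorrhiza, circles replicate 1, triangles replicate 2). The arcs are nested, and the 2956-bp copies stand at 106 and 99.7 against 0.576 and 1.06 normalised CPM in mycelium.

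To ask whether these models differed between the tissues, total gene reads of all models were fitted with edgeR's quasi-likelihood test, and Benjamini-Hochberg adjustment ran over the 11471 models that passed the filter on low counts. Of the 99 members, 55 passed the filter and 44 were too sparse to test. Normalised CPM are CPM on library sizes scaled by edgeR's TMM method. Fewer fungal cells and less RNA per cell cannot be told apart in such bulk samples.

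Of the 55 tested members, 32 changed (58.2%), against 51.8% of all tested models. Lower levels in ectomycorrhiza were called for 25 members (45.5%, against 27.5% of all tested models) and higher levels for 7 (12.7%, against 24.3%). The median log2 fold change was -0.82, against -0.20 over all tested models. Setting the 2 members that had no ectomycorrhiza read to their bound could not move it, since both bounds also lie below it. Models with some but at most 50% shared reads had a median of -0.37, with 212 higher and 313 lower of 1085 tested, and models with no shared read -0.17, with 2572 and 2815 of 10331. Whether the members differ from other models was not tested. The tested members were also less abundant, with a median of 10.1 RPKM in mycelium and 2.51 in ectomycorrhiza, against 21.8 and 10.7 over all tested models (reads per transcript length and library total, as deposited). Both libraries of one tissue lay above both of the other in 43 of the 55 tested members (78.2%, against 80.2% of all tested models).

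The split depended on scaling and on 1 library at a time. With total counts as the scale, which moved the median of all models from -0.20 to -1.15, 34 members were called (against 68.2% of all tested models), 1 higher and 33 lower. All 7 members called higher kept a positive log2 fold change there, but 1 kept its call. With limma on log2(RPKM + 1), 2 members were higher and 34 lower, which made 65.5%, against 68.5% of all tested models. Without mycelium replicate 1, 0 members were higher by edgeR, also at an unadjusted p under 0.05, and 15 lower, which made 30.6% of the members tested there, against 35.3% of all tested models (15.6% higher and 19.7% lower). Without mycelium replicate 2, 4 were higher and 15 lower, which made 38.0%, against 35.8% (15.8% higher and 20.0% lower). Without ectomycorrhiza replicate 1 there were 14 higher, of which 3 were among the 7, and 27 lower, which made 66.1%, against 62.7% (28.8% higher and 33.9% lower). Without ectomycorrhiza replicate 2 there were 6 and 23, which made 46.8%, against 61.9% (29.6% higher and 32.3% lower). In each case the remaining library was assumed to vary like the other tissue.

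Copies of a pair are not separate measurements. When members of equal length were summed before the fit, 41 units were tested, of which 24 changed (58.5%, against 51.8% of all units), 6 higher and 18 lower, and the median log2 fold change was -0.82. Of the 12 pairs with both copies tested, 9 had the same call in each copy, lower in 3 and not passed in 6. In 2 pairs 1 copy passed, and in 1 pair the copies passed in opposite directions.

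The steepest falls among well covered members were those of 2 models of near equal length, both with unique reads. Gene model 423899 (1703 bp) was counted at 2200 and 2135 reads in mycelium, and at 3 in each ectomycorrhiza library. Its normalised CPM was 84.0 ± 0.599 in mycelium and 0.963 ± 0.054 in ectomycorrhiza (SD, n = 2). The model was 86.6-fold lower (log2 fold change -6.44 with SE 0.34, adjusted p = 0.00035 by edgeR). Gene model 13612 (1692 bp) was counted at 1424 and 1116 reads, and at 4 and 3 in the ectomycorrhizas. Its normalised CPM fell from 49.2 ± 7.75 to 1.12 ± 0.164 (SD, n = 2), with a log2 fold change of -5.44 (SE 0.37, adjusted p = 0.00051 by edgeR). The tissues lay far apart in both models, and the tests on unique reads alone gave -5.76 and -5.95 (adjusted p = 0.00046 and 0.0015 by edgeR). Both models reached the limit of the low-count filter only in mycelium, where they were high. Their p-values are therefore no separate support for a fall. The lengths differ by 11 bp, and model 13612 held 38.75% of the unique and 39.3% of the total reads of the 2 models in mycelium replicate 1, and 34.3% and 34.3% in replicate 2. In ectomycorrhiza it held 50% and 57.1% in replicate 1 and 0% and 50% in replicate 2, from at most 2 unique reads per model and library.

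Further models fell as well. The 1782-bp and 1794-bp models, 12 bp apart in length, had 507 and 532 against 901 and 987 reads in mycelium, and 9 and 13 against 12 and 26 in ectomycorrhiza. Both fell, with log2 fold changes of -2.51 (SE 0.32, adjusted p = 0.0025 by edgeR) and -2.57 (SE 0.41, adjusted p = 0.0050). The 1591-bp and 1499-bp models, neighbours in ID order, both fell, with log2 fold changes of -2.48 and -2.74 (adjusted p = 0.0053 and 0.0069 by edgeR). The 1499-bp model reached the limit of the low-count filter in both libraries only in mycelium, so its p-value is no separate support. The 1591-bp model had 2381 and 1946 mycelium reads and 66 and 29 ectomycorrhiza reads. The 1512-bp model had 1776 and 1221 reads in mycelium, against 55 and 27 in ectomycorrhiza, and fell from 58.0 ± 14.4 to 13.0 ± 5.61 normalised CPM (SD, n = 2), with a log2 fold change of -2.15 (adjusted p = 0.0074 by edgeR).

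Models next to each other in ID order fell with unlike log2 fold changes, and the difference between them was not tested. The 1605-bp copies, without unique reads, had 73 and 97 against 95 and 88 reads in mycelium, and 0 and 1 against 1 and 1 in ectomycorrhiza. Summed, the pair fell from 6.84 ± 0.562 to 0.488 ± 0.254 normalised CPM (SD, n = 2), with a log2 fold change of -3.81 (adjusted p = 0.0025 by edgeR). The ectomycorrhiza level rests on 1 and 2 reads, near the floor of 0.481 normalised CPM, so the size of this fall is uncertain. The pair reached the limit of the low-count filter only in mycelium, so its p-value is no separate support for a fall. The neighbouring 1488-bp copies, with unique reads, summed to 11.8 and 13.2 normalised CPM in mycelium and 5.55 and 5.01 in ectomycorrhiza (log2 fold change -1.24, adjusted p = 0.014 by edgeR). The 1416-bp model beside them fell by 1.61 on the log2 scale (SE 0.27, adjusted p = 0.0054 by edgeR). All 3 lengths were lower in both ectomycorrhiza libraries than in either mycelium library.

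Falls without any ectomycorrhiza read were seen in models with few reads. The 2280-bp model had 92 and 57 reads in mycelium and 0 in ectomycorrhiza, and its mean was at least 5.99-fold lower (adjusted p = 0.014 by edgeR). An 876-bp copy with 33 and 23 mycelium reads was at least 2.25-fold lower (adjusted p = 0.033 by edgeR). These bounds set ectomycorrhiza at 3 reads summed over its libraries, or 0.481 normalised CPM. Both models passed the low-count filter through mycelium alone, where they were high, so their p-values are no separate support for a fall. At least 5-fold falls past the threshold were found for 11 of the 55 tested members by fitted values and for 10 with these models at their bound. Over all tested models the share was 10.4% by fitted values. At least 5-fold rises past the threshold were found for 1 of the 55, against 8.07% of all tested models.

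The most read member stayed abundant in both tissues. The 975-bp model held 5501 and 6809 reads in mycelium, against 413 and 427 in ectomycorrhiza, or 317 and 361 RPKM against 89.2 and 110 RPKM. It fell from 239 ± 39.2 to 135 ± 10.7 normalised CPM (SD, n = 2), with a log2 fold change of -0.82 (SE 0.24, adjusted p = 0.035 by edgeR), and its unique reads alone gave -0.83 (adjusted p = 0.034). The second most read, of 2196 bp, had 2225 and 2429 reads in mycelium, against 459 and 694 in ectomycorrhiza. It rose from 90.2 ± 6.86 to 186 ± 63.7 normalised CPM (SD, n = 2), with a log2 fold change of 1.05 (adjusted p = 0.035 by edgeR), while its unique reads alone gave 1.06 with no call (adjusted p = 0.064 by edgeR) and total counts as the scale gave no call. The 5 most read members were also ordered among themselves by level per length in mycelium. The 975-bp model had 339 RPKM, the 1591-bp model 73.7 and the 1703-bp model 68.8. Then came 57.1 for the 2196-bp model and 48.6 for the larger 2956-bp copy. Members with fewer reads lay within this range as well, at 80.6 and 86.0 RPKM for the 201-bp copies and 53.9 for the 1512-bp model. The 1591-bp and 1703-bp values did not differ beyond their spread (SD 14.8 and 5.56, n = 2). Among these 5 in ectomycorrhiza, the 2196-bp model, at 61.8 ± 25.2 RPKM, stood next to the 975-bp model, at 99.8 ± 14.97 (SD, n = 2). The other 3 were under 10 RPKM. The 201-bp copies, with fewer reads, stood at 102.8 ± 70.9 and 94.8 ± 71.95 RPKM in ectomycorrhiza (SD, n = 2).

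Higher levels in ectomycorrhiza were called for few members, and 4 of the 7 lay in the run of 14 IDs. Gene model 450064 (594 bp) was counted at 100 and 125 reads in the cultures, and at 37 and 34 in the ectomycorrhizas. It rose from 4.37 ± 0.746 to 11.4 ± 0.041 normalised CPM (SD, n = 2), with a log2 fold change of 1.38 (SE 0.28, adjusted p = 0.010 by edgeR). Its unique reads alone, 25 and 19 against 5 and 4, gave 0.75 with no call (adjusted p = 0.24 by edgeR). Gene model 450059, a 619-bp copy, was counted at 174 and 207 reads in the cultures, and at 63 and 41 in the ectomycorrhizas (log2 fold change 1.17, SE 0.29, adjusted p = 0.020 by edgeR). Its partner had 214 and 249 reads against 47 and 45, which did not pass (log2 fold change 0.72, adjusted p = 0.055 by edgeR). Summed, the pair rose from 16.4 ± 2.09 to 31.3 ± 3.68 normalised CPM (SD, n = 2), with a log2 fold change of 0.94 (SE 0.25, adjusted p = 0.026 by edgeR). Both of these named calls were lost with total counts as the scale. They were also lost without mycelium replicate 1 or 2, with adjusted p = 0.18 and 0.075 by edgeR for model 450064 and 0.25 and 0.13 for model 450059.

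The other higher members had few reads. The 526-bp model of the run had 3 and 2 reads in mycelium, against 5 and 6 in ectomycorrhiza (log2 fold change 4.07, SE 0.61, adjusted p = 0.0040 by edgeR), and was the one call that held with total counts as the scale. The 396-bp model had 11 and 17 reads against 10 and 5 (log2 fold change 2.13, adjusted p = 0.021 by edgeR). The 1278-bp model had 18 and 46 against 19 and 13 (log2 fold change 2.03, adjusted p = 0.029 by edgeR). The seventh was the 2956-bp copy without unique reads, with a log2 fold change of 2.22 (SE 0.55, adjusted p = 0.021 by edgeR). The 526-bp and 396-bp models and this 2956-bp copy reached the limit of the low-count filter in both libraries only in ectomycorrhiza, where they were high. Their p-values are therefore no separate support for a rise.

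The 2956-bp pair was the one with opposite calls. Its better covered copy fell from 103 ± 4.72 to 39.3 ± 24.6 normalised CPM (SD, n = 2), with a log2 fold change of -1.39 (SE 0.46, adjusted p = 0.0495 by edgeR). Summed, the pair fell from 104 ± 4.38 to 43.1 ± 22.6 (log2 fold change -1.27, SE 0.40, adjusted p = 0.0435 by edgeR). The copy called higher had no unique read and supplied 24 of the 265 reads of the pair in ectomycorrhiza. A change in its level cannot be told apart from a change in how shared reads were placed.

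The 991-bp pair of the run fell, and the 749-bp and 3201-bp pairs did not pass. The 991-bp pair, at both ends of the mirrored stretch, summed to 11.0 and 10.1 normalised CPM in mycelium and 3.08 and 1.67 in ectomycorrhiza, a fall of both copies (summed log2 fold change -2.13, SE 0.37, adjusted p = 0.0065 by edgeR). The 749-bp pair summed to 21.1 and 23.7 against 23.4 and 31.7 normalised CPM, and the tissues overlapped (log2 fold change 0.30, adjusted p = 0.37 by edgeR). The 1363-bp copies of the run had log2 fold changes of 0.53 and 0.54 and did not pass (adjusted p = 0.11 and 0.10 by edgeR). A model of the same length with a far lower ID fell by 1.70 on the log2 scale (SE 0.36, adjusted p = 0.011 by edgeR). The 3201-bp pair summed to 43.4 and 37.7 in mycelium and 39.1 and 77.4 in ectomycorrhiza (log2 fold change 0.52, adjusted p = 0.27 by edgeR). Of the 14 models, 3 were lower, 4 higher and 7 did not pass.

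**Figure D4:**
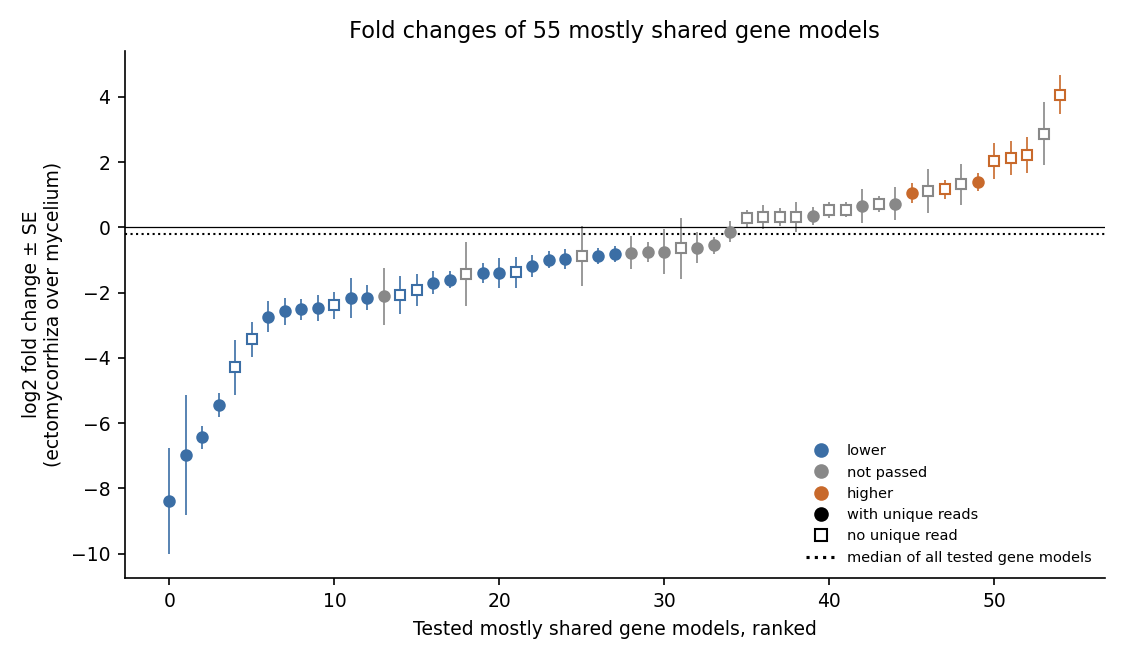
Log2 fold change (ectomycorrhiza over mycelium, ± SE from edgeR) of the 55 tested members in ranked order; blue is lower, orange higher, grey not passed. Open squares mark members without a unique read, and the dotted line marks the median of all tested models at -0.20, with 35 of the 55 members below 0.

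The calls were also counted by whether a member had unique reads. Of the 31 tested members with unique reads, 19 were lower and 2 higher, and the median log2 fold change was -1.18. Of the 24 without unique reads, 6 were lower and 5 higher, with a median of 0.32. This difference was not tested, and 10 of the members without unique reads lay in the one run of IDs. With unique reads in place of total reads for all models, 25 members could be tested. Of these, 12 were lower and 0 higher by edgeR, which made 48.0%, against 51.8% of all tested models (27.5% lower and 24.3% higher). Of these 12, 11 were also lower by total reads, and the sign was the same by both counts in 24 of the 25. At an unadjusted p under 0.05 on unique reads, 2 members were higher and 13 lower by edgeR, and the share of all models at that limit is not given here. Of the 7 members higher by total reads, 2 had enough unique reads to be tested.

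In some pairs the libraries of 1 tissue stood far apart and the tissues overlapped. The 201-bp pair summed to 15.04 and 34.0 normalised CPM in mycelium and 87.8 and 25.7 in ectomycorrhiza (log2 fold change 1.21, SE 0.66, adjusted p = 0.17 by edgeR). The 3738-bp pair, the longest, summed to 85.5 and 65.6 in mycelium and 58.2 and 130 in ectomycorrhiza (log2 fold change 0.32, adjusted p = 0.55 by edgeR). In ectomycorrhiza, replicate 1 was the higher library for the short pair and replicate 2 for the long one. The same order was found over all tested models, with a median log2 ratio of replicate 1 over replicate 2 of 0.67 under 600 bp and -0.72 at 2400 bp or more. Among members the medians were 1.12 for 6 short and -0.94 for 7 long models, and the part of transcript length in these differences was not tested.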

How the data were processed

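The authors deposited raw counts of total and of unique gene reads for each gene model of the Hebcy2 annotation, and RPKM values, per the file headers. RPKM equals total gene reads over transcript length and over the library's sum of total gene reads, to within 5e-06. Reads were 100 bp long, per the series design text. Not given in the sources used here were the aligner, the counting program, its rule for reads with several matches and its use of strand, so overlapping models cannot be separated either. RNA was sequenced in 2 mycelium and 2 ectomycorrhiza libraries of 3967725 to 19341938 gene reads.

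Total gene reads were tested in edgeR 4.0.16 (R 4.3.3) with filterByExpr by group, TMM scaling, the robust quasi-likelihood test and group as the only term; calls have a Benjamini-Hochberg adjusted p under 0.05 over 11471 models. A tissue with 0 reads was set to 3 reads over its libraries. Intervals are exact 95% binomial intervals from scipy 1.17.1. The members and lists were chosen with earlier results of these data known. Models named by ID were called, did not overlap between tissues and reached 10 normalised CPM in the higher tissue; the first 2 by log2 fold change in each direction are given, since the tables pair no ID with a product, and no gene list could be built. The 5 most read members and the same-length groups are described beside them, and all other members were picked after their values were seen. Alternatives were other scalings (RLE, upper quartile, total counts), DESeq2 1.42.0, limma-voom and limma on log2(RPKM + 1) (limma 3.58.1), 2 other filters, unique reads, summed same-length members, other limits for shared reads, leaving out each library and a replicate block. Low models change more than a log2(RPKM + 1) difference shows.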

Additional observations from a re-analysis of the deposited data

How the results depend on the processing

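The median log2 fold change of the tested members was negative under each alternative scaling, tool, filter and left-out library. So was that of all tested models, given second here. The medians were -0.73 and -0.11 with RLE and with DESeq2, and -0.87 and -0.22 with limma-voom. With upper-quartile scaling they were -1.21 and -0.59, with total counts -1.77 and -1.15, and with limma on log2(RPKM + 1) -1.41 and -1.02. Unique reads gave -1.34 and -0.20, and leaving out 1 library -0.91 to -0.55 and -0.32 to -0.23. The member median minus that of all tested models was -0.62 in the main fit. It ran from -1.14 with unique reads to -0.30 without ectomycorrhiza replicate 2. The member median was not computed for the other limits of shared reads. Calls numbered 32, and 12 with unique reads (0 higher, 12 lower), which made 48.0%, against 51.8% of all tested models. They numbered 21 with a limit of 25% unique reads (6 higher, 15 lower) and 52 with a limit of 75% (16 higher, 36 lower). The 31 tested members with a unique read had 21 calls (2 higher, 19 lower). Over all tested models the main fit called 51.8%, with 24.3% higher and 27.5% lower. The number of members tested under the other limits is not given here. Leaving out 1 library gave 15 to 41 calls (0 to 14 higher, 15 to 27 lower). These made 30.6% to 66.1% of members, against 35.3% to 62.7% of all tested models. Higher calls were 1 with total counts and 2 with limma on log2(RPKM + 1). DESeq2 called 8 higher and 18 lower (47.3% of members, against 49.2% of all tested models). The 1 member kept per transcript length, the members with a unique read and the crossed pairing were chosen after seeing the data. The labels do not say what a replicate number marks, and libraries with equal numbers deviated from their tissue means with Pearson's r = -0.213 over the tested models; with the replicate block 25 members were called (7 higher, 18 lower; median -0.88; 45.5%, against 45.5% of all models), and with the numbers crossed 33 (median -0.87), against 57.2% of all models. With a limit of 75% unique reads there were 151 members. The members held 0.169% of mycelium and 0.0622% of ectomycorrhiza reads on average, 0.0407% and 0.0131% of unique reads, 0.154% and 0.0767% of summed RPKM, 0.0798% and 0.0341% with the 25% limit and 0.266% and 0.172% with the 75% limit. Shared reads were 76.0% and 79.2% of the members' reads, 77.8% in mycelium for members with at least 10 reads in every library, and 100% in the median member. Gene models 423899 and 13612 kept their call under all alternatives. Models 450064 and 450059 each lost it under 5. Model 450059 had no unique read, so the alternative with unique reads could not be run for it. The cause of these shifts was not tested.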
